A study of Mus musculus with 16 samples.

Results

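The 10 genes described here, *Sod2*, *Sod3*, *Hmox1*, *Nqo1*, *Xdh*, *Mt1*, *Mt2*, *Slc39a8*, *Slc39a14* and *Steap4*, encode enzymes and transporters of redox defence and of zinc and iron handling. They were taken by gene symbol from the 55414 gene identifiers counted in each library, and all 10 were detected in every library. The RNA-Seq experiment used chondrocyte-enriched cells from the epiphyses of 3- to 4-day-old mice in a C57BL/6 background, with male and female mice pooled. Cells came from heterozygous *Notch2*tm1.1Ecan mice, in which a stop codon in *Notch2* leaves the NOTCH2 protein without its PEST domain, or from control littermates with the wildtype gene. Cells of each genotype received vehicle (phosphate buffered saline) or tumor necrosis factor α (TNFα), the latter at 50 ng/ml, and were harvested after 6 h. Each of the 4 groups had 4 libraries, which the annotation names biological replicates. Whether the replicates were separate cultures or mice is not stated, so that p values measure only the spread between these libraries. The mutation is global, so that any cell type in the cultures carries it, and the counts of *Notch2* sum the mutant and the wildtype transcript. The sample annotation describes medium without serum for the groups given TNFα, whereas the paper describes it for vehicle and TNFα alike. If the annotation is right, the effects of TNFα and of serum removal cannot be told apart in a comparison of TNFα with vehicle.

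Superoxide, a by-product of respiration and the product of NADPH oxidases, is converted to hydrogen peroxide by superoxide dismutases in mitochondria (SOD2) and in the extracellular matrix (SOD3). Heme oxygenase 1 (HMOX1) degrades heme and NQO1 reduces quinones, and both are well known targets of the transcription factor NRF2, whereas xanthine dehydrogenase (XDH) catalyzes the last steps of purine breakdown to uric acid. Metallothioneins (MT1 and MT2) bind zinc through cysteines and are induced by zinc through the transcription factor MTF1, SLC39A8 (ZIP8) and SLC39A14 (ZIP14) import zinc and other divalent metals, and STEAP4 is a metalloreductase of iron and copper. In cartilage, superoxide dismutases protect the matrix and the chondrocyte from oxidants, and ZIP8 has been studied in osteoarthritis as a route of zinc entry that precedes the induction of matrix-degrading enzymes.

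Levels are given as CPM, the standard scaling of the counts of a gene to the total of its library, here after correction of that total with TMM factors, and changes as log2 fold changes. A gene was called changed when its adjusted p was under 0.05 in edgeR's quasi-likelihood test, adjusted by Benjamini and Hochberg over all genes tested in that comparison. Totals on genes ranged from 3439726 to 44237300 counts per library with a median of 17062419, and the library with the lowest total was *Notch2*tm1.1Ecan TNFα replicate 4. The chondrocyte markers *Sox9*, *Acan*, *Col2a1* and 12 others were present in all libraries, with a summed level of 20412 to 55716 CPM, and the 16 macrophage markers summed to 79.6 to 226 CPM. *Notch2* was at 104 to 188 CPM in the 8 control libraries and at 136 to 241 CPM in the 8 *Notch2*tm1.1Ecan libraries. *Heyl*, a Notch target gene, was at 0.0788 to 0.549 and at 1.17 to 2.28 CPM, respectively, with 1 to 10 counts in the control libraries. With the treatments pooled, only *Heyl* separated the genotypes without overlap. Under TNFα alone *Notch2* also did, at 129 to 188 CPM in control and 210 to 241 CPM in *Notch2*tm1.1Ecan libraries.

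Control vehicle replicate 4 stood apart from the other vehicle libraries. The 6 TNFα-responsive genes chosen as a check, *Icam1*, *Nfkbia*, *Tnfaip3*, *Ccl2*, *Cxcl1* and *Birc3*, summed to 768 CPM in this library, to 81.6 to 94.7 CPM in the other 3 control vehicle libraries, to 84.7 to 89.8 CPM in the *Notch2*tm1.1Ecan vehicle libraries and to 3941 to 4988 CPM with TNFα. Each of these 6 genes lay between 13.6 and 17.8% of the way from the mean of control vehicle replicates 1 to 3 to the mean of control TNFα replicates 1 to 3. Among the 10 genes, *Steap4* lay 20.3%, *Xdh* 18.2%, *Sod2* 14.3%, *Mt2* 10.7%, *Slc39a8* 7.25% and *Mt1* 6.94% of that way in control vehicle replicate 4, whereas *Sod3*, *Hmox1* and *Nqo1* did not move toward the TNFα level. *Slc39a14*, which was lower with TNFα, lay 44.9% of that way, but its means were close, at 147 and 132 CPM. Control TNFα replicate 4 lay lower than the other control TNFα libraries for 8 of the 10 genes, the exceptions being *Slc39a8* and *Slc39a14*. For *Hmox1* it lay 46.3%, for *Nqo1* 35.3% and for *Sod3* 27.9% of the way back to the vehicle mean. With 1 library left out, the log2 fold changes of these 3 genes with TNFα in control cells were 0.37 to 0.42, 0.44 to 0.51 and 0.41 to 0.44, respectively. The source of these shifts was not tested, and values without these libraries are given beside many of the results that they touch.

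TNFα raised 9 of the 10 genes in control cells and the same 9 genes in *Notch2*tm1.1Ecan cells. *Steap4* and *Mt2* had the largest rises, *Sod2*, *Xdh*, *Mt1* and *Slc39a8* rose at least 2-fold in each genotype, and *Sod3*, *Hmox1* and *Nqo1* rose by less. *Slc39a14* was the exception and fell slightly in control cells, without a called change in *Notch2*tm1.1Ecan cells, although the difference between the genotypes was itself not called (interaction 0.12 on the log2 scale, adjusted p = 0.754 with edgeR). Over all genes tested, TNFα raised 23.3% and lowered 20.9% in control cells and raised 22.6% and lowered 21.9% in *Notch2*tm1.1Ecan cells, and 8.47 and 9.2% rose by at least 2-fold. The TNFα libraries lay above the vehicle libraries without overlap for 9 of the 10 genes in each genotype, against 21.5% of all genes in control and 19.8% in *Notch2*tm1.1Ecan cells. The median log2 fold change over the 10 genes was 1.37 in control and 1.35 in *Notch2*tm1.1Ecan cells, against 0.04 and 0.03 over all genes tested. The number of called genes in control cells was the same, 9 raised and 1 lowered, when both control replicates 4 were left out, against 24.6 and 22.8% of all genes tested.

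**Figure D1:**
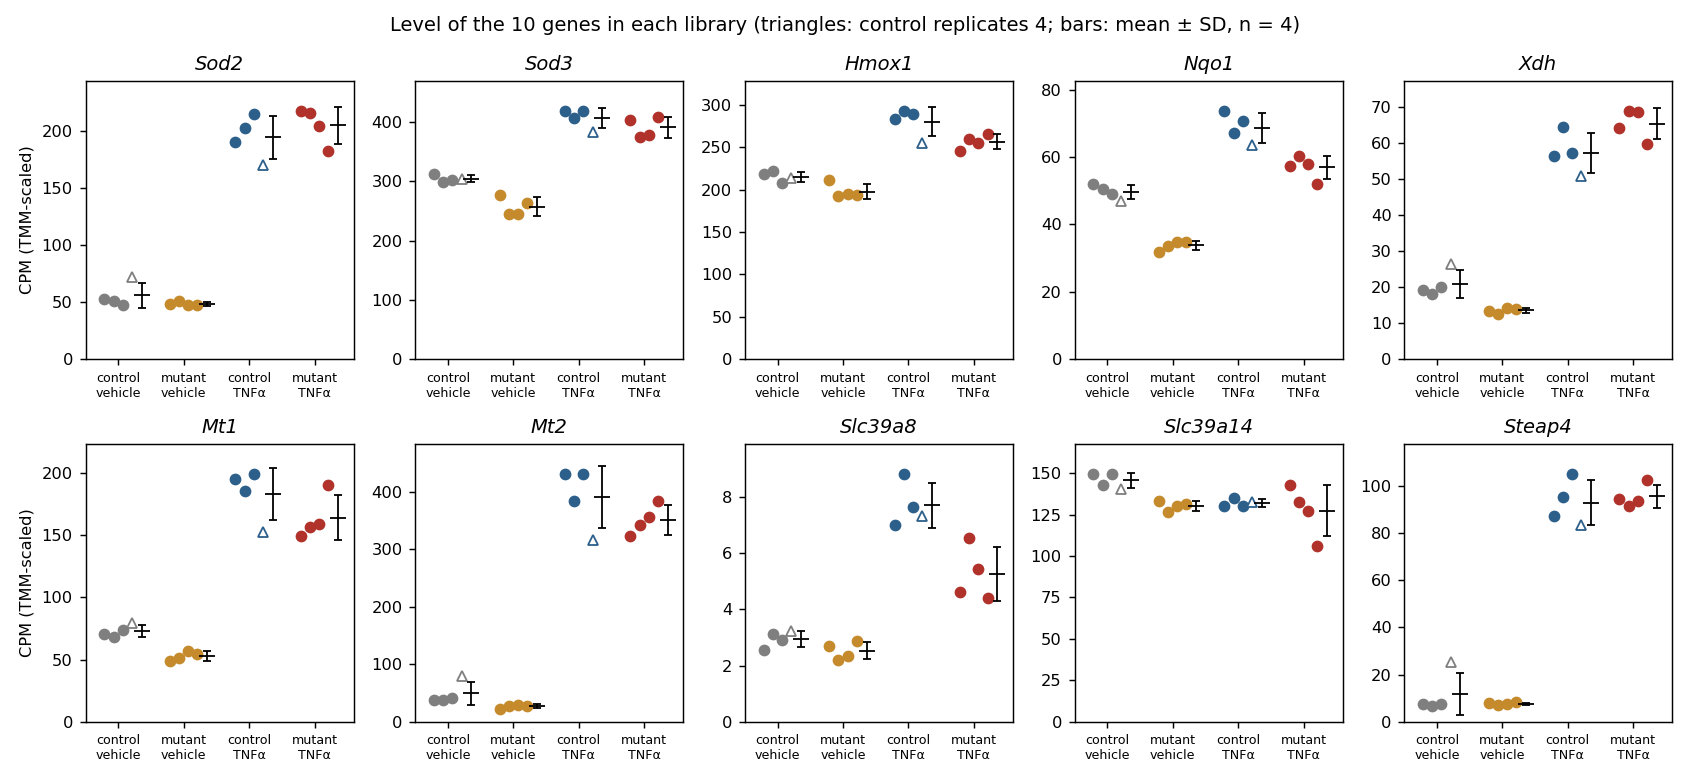
Level of each of the 10 genes in each of the 16 libraries, in CPM scaled with TMM factors. Each point is a library, triangles are the replicates 4 of the control groups, and the bars at the right of each group give the mean ± SD (n = 4). The TNFα groups lie above the vehicle groups without overlap for 9 genes, *Slc39a14* being the exception, and control vehicle replicate 4 is the highest vehicle library for *Steap4* at 25.3 CPM and for *Mt2* at 79.6 CPM.

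The superoxide dismutases differed in the size of their response. *Sod2* (ENSMUSG00000006818, GRCm39 chromosome 17, 13224095 to 13259591, plus strand), which encodes the mitochondrial enzyme, was at 53.0, 51.2, 47.1 and 72.1 CPM in control vehicle replicates 1 to 4 and at 48.0, 51.1, 47.0 and 47.7 CPM in *Notch2*tm1.1Ecan cells with vehicle. With TNFα it was at 190, 203, 215 and 170 CPM in control cells and at 218, 216, 204 and 182 CPM in *Notch2*tm1.1Ecan cells. All 8 TNFα libraries were above all 8 vehicle libraries, and the genotypes overlapped within each treatment. The rise was 3.49-fold in control cells (log2 fold change 1.80, standard error 0.16, adjusted p = 0.000101 with edgeR) and 4.26-fold in *Notch2*tm1.1Ecan cells (2.09, standard error 0.07, adjusted p = 8.39e-20 with edgeR). Without both control replicates 4 the rise in control cells was 4.03-fold.

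In contrast, the response of *Sod3* was small. *Sod3* (ENSMUSG00000072941, chromosome 5, 52521070 to 52528883, plus strand), which encodes the secreted, matrix-bound enzyme, was at 298 to 312 CPM in control and 245 to 277 CPM in *Notch2*tm1.1Ecan cells with vehicle, and at 384 to 419 and 374 to 408 CPM with TNFα. Its rise was 1.35-fold in control cells (log2 fold change 0.43, adjusted p = 1.02e-07) and 1.52-fold in *Notch2*tm1.1Ecan cells (0.60, adjusted p = 3.23e-09, both with edgeR). Hence the dismutase of the mitochondrion rose more than that of the matrix in either genotype, with 95% intervals of the log2 fold change of 1.42 to 2.19 for *Sod2* and 0.33 to 0.52 for *Sod3* in control cells.

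The upstream sequences of *Sod2* and *Steap4* are shown because both windows hold a match to the NF-κB site, the element bound by a transcription factor activated by TNFα. The 250 bases before the RefSeq start of each gene in GRCm38.p6, 5′ to 3′ on the coding strand, are chr17:13007589-13007838 (plus strand) for *Sod2* and chr5:7960222-7960471 (plus strand) for *Steap4*, and capitals mark the matches.
Sod2: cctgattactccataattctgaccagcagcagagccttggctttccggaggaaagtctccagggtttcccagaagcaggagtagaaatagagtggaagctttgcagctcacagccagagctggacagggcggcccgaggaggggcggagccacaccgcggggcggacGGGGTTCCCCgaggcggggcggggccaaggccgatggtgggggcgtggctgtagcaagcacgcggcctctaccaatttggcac
Steap4: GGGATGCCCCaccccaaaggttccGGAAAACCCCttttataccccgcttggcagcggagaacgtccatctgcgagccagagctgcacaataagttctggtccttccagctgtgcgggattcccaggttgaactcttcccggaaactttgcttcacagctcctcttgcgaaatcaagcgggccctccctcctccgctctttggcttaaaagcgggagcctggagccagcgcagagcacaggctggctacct

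*Sod2* had 1 match, from -83 to -74 relative to the start, and *Steap4* had 2, from -250 to -241 and from -226 to -217, both found on the minus strand. Both strands were searched in windows from 250 bases before to 50 bases after each start, and 4.51% of 32851 RefSeq windows had at least 1 match and 0.554% had 2 or more. Windows were at hand for 6 of the 10 genes, *Sod2*, *Nqo1*, *Mt1*, *Mt2*, *Steap4* and *Slc39a8*, the last with 2 starts, and the other members with such a window had no match to the NF-κB site. A match describes letters only, and binding was not measured.

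*Steap4* (ENSMUSG00000012428, chromosome 5, 8010260 to 8032214, plus strand), the metalloreductase, had one of the 2 largest rises. Control vehicle libraries were at 7.57, 6.47, 7.66 and 25.3 CPM and *Notch2*tm1.1Ecan vehicle libraries at 7.78, 7.29, 7.31 and 8.21 CPM. With TNFα, control libraries were at 87.5, 95.5, 105 and 83.6 CPM and *Notch2*tm1.1Ecan libraries at 94.7, 91.6, 93.6 and 103 CPM. Apart from control vehicle replicate 4, the vehicle libraries of both genotypes fell within a narrow range, and so did the TNFα libraries. The rise was 7.82-fold in control cells (log2 fold change 2.97, standard error 0.45, adjusted p = 0.00201) and 12.3-fold in *Notch2*tm1.1Ecan cells (3.63, standard error 0.08, adjusted p = 1.55e-23, both with edgeR). The first value depended on the control replicates 4, since without both of them the rise in control cells was 13.3-fold. Leaving out replicate 4 moved the control vehicle mean from 11.7 to 7.23 CPM and the control TNFα mean from 93.0 to 96.1 CPM.

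*Hmox1* and *Nqo1*, the NRF2 targets among the 10 genes, rose modestly. *Hmox1* (ENSMUSG00000005413, chromosome 8, 75820241 to 75827217, plus strand) was at 208 to 221 CPM in control and 192 to 211 CPM in *Notch2*tm1.1Ecan cells with vehicle, and at 255 to 293 and 246 to 266 CPM with TNFα. The rise was 1.31-fold in control cells (log2 fold change 0.39, adjusted p = 1.97e-06) and 1.30-fold in *Notch2*tm1.1Ecan cells (0.38, adjusted p = 5.48e-06, both with edgeR). *Nqo1* (ENSMUSG00000003849, chromosome 8, 108113835 to 108129934, minus strand) was at 52.0, 50.4, 48.9 and 47.0 CPM in control and at 31.9, 33.7, 34.7 and 34.8 CPM in *Notch2*tm1.1Ecan cells with vehicle. With TNFα it was at 73.7, 67.1, 70.8 and 63.5 CPM and at 57.4, 60.5, 57.8 and 52.1 CPM, respectively. All 4 groups of *Nqo1* were separated without overlap, in the order control TNFα, *Notch2*tm1.1Ecan TNFα, control vehicle and *Notch2*tm1.1Ecan vehicle. This was so for no other of the 10 genes, but the share of all genes with 4 separated groups was not computed. The separation of the middle groups was marginal. It rested on *Notch2*tm1.1Ecan TNFα replicate 4, at 52.1 CPM from 189 counts, against control vehicle replicate 1 at 52.0 CPM. The rise with TNFα was 1.39-fold in control cells (log2 fold change 0.48, adjusted p = 5.08e-07) and 1.70-fold in *Notch2*tm1.1Ecan cells (0.77, adjusted p = 5.25e-10, both with edgeR).

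*Xdh* (ENSMUSG00000024066, chromosome 17, 74190203 to 74257399, minus strand), which encodes the enzyme that forms uric acid and, in its oxidase form, superoxide, changed its order between the genotypes. Control vehicle libraries were at 19.1, 18.0, 20.1 and 26.4 CPM and *Notch2*tm1.1Ecan vehicle libraries at 13.4, 12.5, 14.2 and 14.0 CPM, without overlap. With TNFα, control libraries were at 56.4, 64.5, 57.2 and 50.9 CPM and *Notch2*tm1.1Ecan libraries at 64.2, 69.1, 68.8 and 59.9 CPM, with overlap and a higher mean in the mutant. The rise was 2.75-fold in control cells (log2 fold change 1.46, standard error 0.13, adjusted p = 1.15e-05) and 4.87-fold in *Notch2*tm1.1Ecan cells (2.28, standard error 0.08, adjusted p = 3.08e-19, both with edgeR). Without both control replicates 4 the rise in control cells was 3.13-fold.

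The metallothioneins rose together but to different levels. *Mt1* (ENSMUSG00000031765, chromosome 8, 94905710 to 94906955, plus strand) was at 70.5, 68.4, 73.4 and 79.3 CPM in control and at 48.8, 50.9, 57.1 and 54.6 CPM in *Notch2*tm1.1Ecan cells with vehicle, and at 195, 185, 200 and 153 CPM and at 150, 156, 159 and 190 CPM, respectively, with TNFα. *Mt2* (ENSMUSG00000031762, chromosome 8, 94898819 to 94900207, plus strand) was at 38.4, 37.5, 41.8 and 79.6 CPM in control and at 22.0, 27.9, 29.8 and 27.8 CPM in *Notch2*tm1.1Ecan cells with vehicle. With TNFα *Mt2* was at 431, 383, 430 and 317 CPM in control and at 323, 342, 355 and 383 CPM in *Notch2*tm1.1Ecan cells. Both genes separated TNFα from vehicle without overlap, and *Mt2* was below *Mt1* in 7 of the 8 vehicle libraries and above it in all 8 TNFα libraries. *Mt1* rose 2.53-fold in control cells (log2 fold change 1.34, standard error 0.08, adjusted p = 2.42e-08) and 3.07-fold in *Notch2*tm1.1Ecan cells (1.62, adjusted p = 2.10e-16, both with edgeR). *Mt2* rose 7.92-fold in control cells (log2 fold change 2.98, standard error 0.31, adjusted p = 0.000296) and 13-fold in *Notch2*tm1.1Ecan cells (3.70, standard error 0.08, adjusted p = 9.58e-22, both with edgeR). Without both control replicates 4, the rise of *Mt2* in control cells was 10.6-fold and that of *Mt1* was 2.74-fold. The genes are close paralogs, so reads that fit both could have been divided between them or lost in the authors' counting.

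The ratio of the paralogs summarizes this shift, since both counts come from the same library and no scaling enters it. *Mt2* had 0.545, 0.549, 0.570 and 1.00 counts per *Mt1* count in control vehicle replicates 1 to 4, and 0.507 ± 0.0416 (SD, n = 4) in *Notch2*tm1.1Ecan cells with vehicle. With TNFα the ratio was 2.13 ± 0.0673 (SD, n = 4) in control and 2.15 ± 0.0934 (SD, n = 4) in *Notch2*tm1.1Ecan cells. Control vehicle replicate 4 was the only library between the vehicle range and the TNFα range, and without it the control vehicle ratio was 0.555 ± 0.0132 (SD, n = 3). The ratio is one of counts and not of molecules, since the annotated exons of *Mt1* span 1246 bases and those of *Mt2* span 950 bases.

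**Figure D2:**
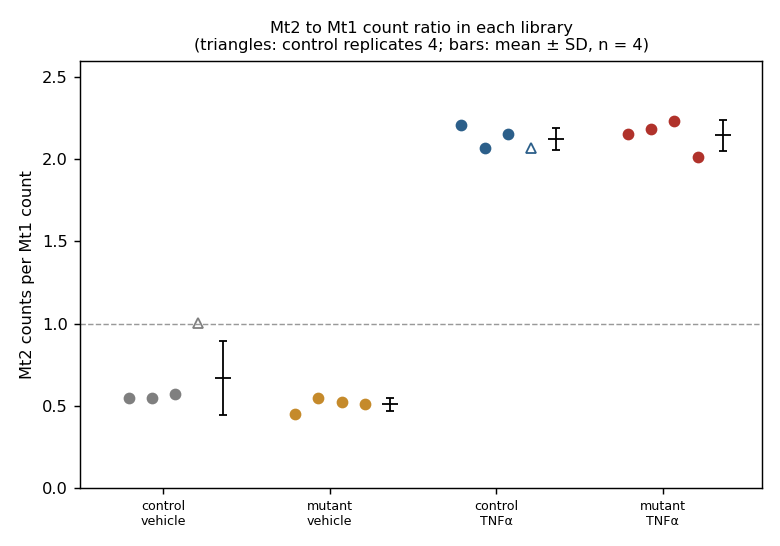
Counts of *Mt2* per count of *Mt1* in each library, by group. Points are libraries, triangles are the replicates 4 of the control groups, bars give the mean ± SD (n = 4), and the dashed line marks a ratio of 1. The 8 TNFα libraries lie between 2.01 and 2.23, and 7 of the 8 vehicle libraries lie between 0.450 and 0.570, with control vehicle replicate 4 at 1.00.

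The upstream sequences of the metallothioneins are shown because the metal response element, the site bound by MTF1, is defined in these promoters. The 250 bases before the RefSeq start in GRCm38.p6, 5′ to 3′ on the coding strand, are chr8:94172368-94172617 (plus strand) for *Mt2* and chr8:94178839-94179088 (plus strand) for *Mt1*, and capitals mark matches to TGCACNC or TGCGCNC on either strand.
Mt2: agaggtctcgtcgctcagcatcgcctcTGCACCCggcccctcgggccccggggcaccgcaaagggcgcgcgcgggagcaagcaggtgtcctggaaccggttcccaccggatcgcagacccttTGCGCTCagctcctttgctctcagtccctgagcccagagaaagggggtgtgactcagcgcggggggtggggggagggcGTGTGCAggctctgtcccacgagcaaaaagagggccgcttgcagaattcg
Mt1: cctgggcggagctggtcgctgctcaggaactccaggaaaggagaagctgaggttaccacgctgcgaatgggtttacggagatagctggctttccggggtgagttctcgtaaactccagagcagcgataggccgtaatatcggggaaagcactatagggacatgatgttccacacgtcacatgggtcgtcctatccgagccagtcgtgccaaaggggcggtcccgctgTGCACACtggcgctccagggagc

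The window of *Mt2* held 3 such matches before the start and 1 after it, and that of *Mt1* held 1 before and 2 after. Of 32851 RefSeq windows of the same length, 25.7% held at least 1 match, 1.97% held 3 or more and 0.517% held 4 or more. The window of *Mt2* also held the core of the antioxidant response element, TGACNNNGC, as TGACTCAGC from -79 to -71, which did not overlap a metal response element, and 12.4% of all windows held this core. The starts are those of RefSeq, and the start used in these cells was not measured. For *Slc39a8*, 1 of the 2 windows held the antioxidant core and the other held 1 metal response element, and *Nqo1*, *Sod2* and *Steap4* held neither.

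The zinc importers *Slc39a8* and *Slc39a14* responded differently to TNFα. *Slc39a8* (ENSMUSG00000053897, chromosome 3, 135531040 to 135594333, plus strand), which encodes ZIP8, was at 2.54, 3.12, 2.90 and 3.21 CPM in control and at 2.69, 2.21, 2.33 and 2.88 CPM in *Notch2*tm1.1Ecan cells with vehicle. With TNFα it was at 7.01, 8.83, 7.64 and 7.32 CPM in control and at 4.63, 6.55, 5.44 and 4.41 CPM in *Notch2*tm1.1Ecan cells, the last value resting on 16 counts. The rise was 2.64-fold in control cells (log2 fold change 1.40, standard error 0.15, adjusted p = 9.15e-08) and 2.12-fold in *Notch2*tm1.1Ecan cells (1.08, standard error 0.18, adjusted p = 1.26e-05, both with edgeR). *Slc39a14* (ENSMUSG00000022094, chromosome 14, 70540678 to 70588914, minus strand), which encodes ZIP14, was at 140 to 150 CPM in control and 126 to 133 CPM in *Notch2*tm1.1Ecan cells with vehicle, and at 130 to 135 and 106 to 143 CPM with TNFα. It fell by 0.14 on the log2 scale in control cells (adjusted p = 0.0234), a call that was lost without control TNFα replicate 1, without control TNFα replicate 3 and without control vehicle replicate 3 (adjusted p = 0.0523 to 0.0711, all with edgeR). In *Notch2*tm1.1Ecan cells its log2 fold change was -0.02, with a 95% interval of -0.16 to 0.13 (adjusted p = 0.873 with edgeR).

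**Figure D3:**
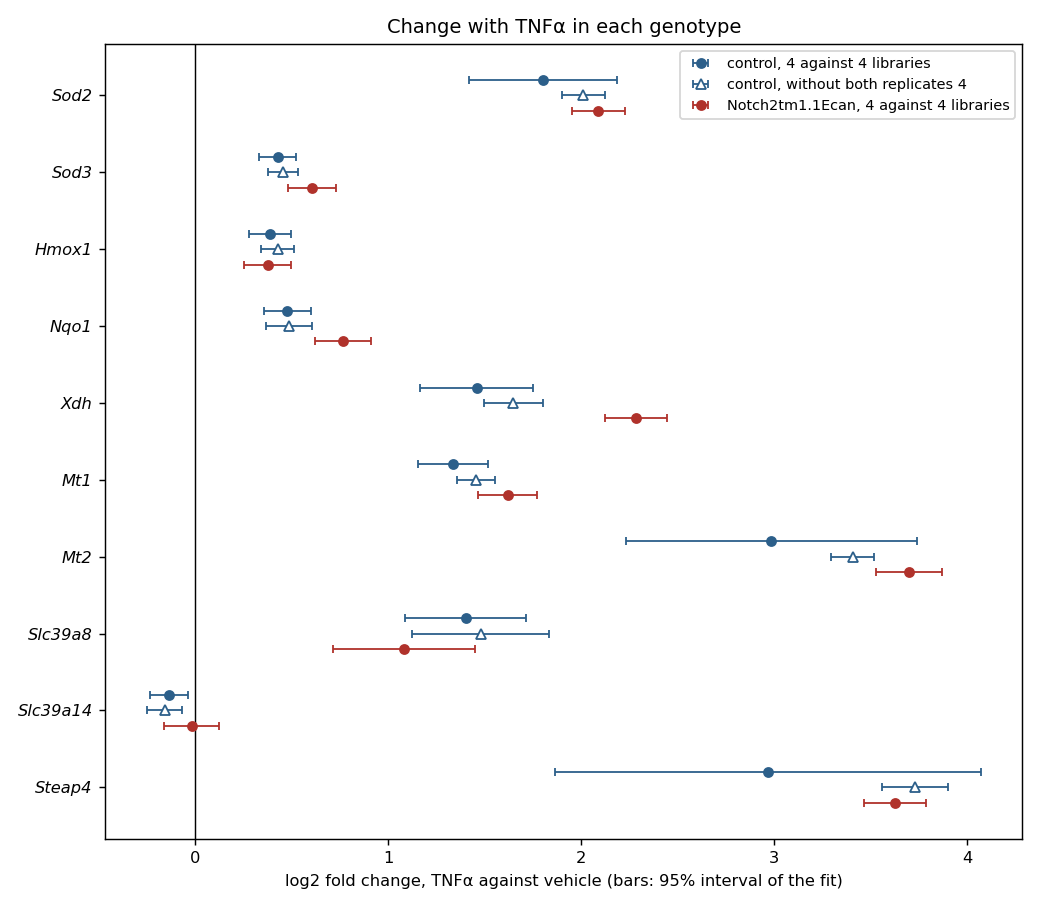
Log2 fold change of each gene with TNFα against vehicle, in control cells with all libraries (circles), in control cells without both replicates 4 (triangles) and in *Notch2*tm1.1Ecan cells (red circles). Bars are 95% intervals of the fit. *Mt2* and *Steap4* lie near 3 in control cells with all libraries and between 3.41 and 3.73 when both replicates 4 are left out.

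Set on a scale of length, the order of the 10 genes changed with TNFα. In control cells with vehicle, *Hmox1* had the highest mean level at 122 CPM per kilobase of annotated exon, followed by *Sod3* at 73.1, *Mt1* at 58.5 and *Mt2* at 51.9, and *Slc39a8* had the lowest at 0.373. In control cells with TNFα, *Mt2* was first at 411 CPM per kilobase, followed by *Hmox1* at 159, *Mt1* at 147 and *Sod3* at 97.8. *Steap4* moved from 3.27 to 25.9 CPM per kilobase and *Sod2* from 4.28 to 14.9, and *Slc39a8* remained lowest at 0.975. These means include both control replicates 4. For *Steap4* the control vehicle mean was 11.7 CPM with all libraries and 7.23 CPM without replicate 4. The lengths join all annotated exons of a gene, 13039 bases for *Sod2* and 1759 for *Hmox1*, so that genes with exons not used in these cells are understated. In bulk RNA, fewer cells of a type and less RNA per cell cannot be told apart, and TNFα also lowered 12 of 15 chondrocyte markers in each genotype, with a summed level of 51907 to 55716 CPM in control vehicle and 37651 to 44634 CPM in control TNFα libraries. Over all genes tested, TNFα lowered 20.9% in control and 21.9% in *Notch2*tm1.1Ecan cells. The part of cell composition in the rises of the 10 genes was not tested.

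To ask whether NOTCH2 alters these genes in the absence of TNFα, *Notch2*tm1.1Ecan cells were compared with control cells under vehicle. *Nqo1*, *Xdh*, *Mt1*, *Sod3* and *Slc39a14* were lower in *Notch2*tm1.1Ecan cells and none of the 10 genes was higher. Among all genes tested, 4.35% were called lower and 6.19% higher. *Nqo1* was 1.46-fold lower (log2 fold change -0.54, standard error 0.06, adjusted p = 9.51e-07), *Xdh* was 1.54-fold lower (-0.62, standard error 0.11, adjusted p = 0.000269) and *Mt1* was 1.37-fold lower (-0.46, standard error 0.06, adjusted p = 1.77e-05, all with edgeR). For these 3 genes every *Notch2*tm1.1Ecan library was below every control library, and the calls were kept whichever of the 8 libraries was left out. *Sod3* was 1.18-fold lower (log2 fold change -0.23, adjusted p = 0.00289 with edgeR), again without overlap and with the call kept in each of the 8 fits. *Slc39a14* was 1.11-fold lower (log2 fold change -0.16, adjusted p = 0.0448), but this call was lost in 6 of the 8 fits that leave out 1 library. It was kept only when the library left out was control vehicle replicate 4 or *Notch2*tm1.1Ecan vehicle replicate 1 (the highest adjusted p was 0.135 with edgeR).

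For *Mt2*, the size of the difference between the genotypes under vehicle and its call depended on 1 library. With all libraries it was 1.83-fold lower in *Notch2*tm1.1Ecan cells but not called (log2 fold change -0.87, standard error 0.29, adjusted p = 0.139), and without control vehicle replicate 4 it was 1.45-fold lower and called (-0.54, adjusted p = 9.22e-05, both with edgeR). The 4 *Notch2*tm1.1Ecan libraries, at 22.0 to 29.8 CPM, were below all control libraries either way. Hence both metallothioneins were lower when control vehicle replicate 4 was left out, and 6 of the 10 genes were then called lower against 4.59% of all genes tested. *Steap4* had a log2 fold change of -0.62 with a 95% interval of -1.82 to 0.58, which without that library became 0.08 with an interval of -0.17 to 0.33. *Sod2* had one of -0.20 (interval -0.48 to 0.07) and, without that library, of -0.06 (interval -0.19 to 0.07). *Hmox1* had one of -0.12 (adjusted p = 0.167) and was called lower only without *Notch2*tm1.1Ecan vehicle replicate 1 (-0.15, adjusted p = 0.00852, both with edgeR). *Slc39a8* had one of -0.20 with a 95% interval of -0.58 to 0.18. Every *Notch2*tm1.1Ecan library was below every control library for 6 of the 10 genes under vehicle, against 7.57% of all genes tested. The median log2 fold change over the 10 genes was -0.34, or -0.21 without control vehicle replicate 4, against -0.0020 over all genes tested.

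Under TNFα, 2 of the 10 genes were called lower in *Notch2*tm1.1Ecan cells and none was called higher, against 4.31% lower and 5.63% higher among all genes tested. *Nqo1* was 1.19-fold lower (log2 fold change -0.25, standard error 0.07, adjusted p = 0.0128), a call lost without control TNFα replicate 1 (adjusted p = 0.0640, both with edgeR). *Slc39a8* was 1.41-fold lower (log2 fold change -0.50, standard error 0.15, adjusted p = 0.0271), and this call was lost without *Notch2*tm1.1Ecan TNFα replicate 1, without *Notch2*tm1.1Ecan TNFα replicate 3 and without control TNFα replicate 2 (adjusted p = 0.0691 to 0.125, all with edgeR). These were the only 2 of the 10 genes without overlap between the groups, against 7.97% of all genes tested in the same direction. The median log2 fold change over the 10 genes was -0.08, or -0.13 without control TNFα replicate 4, against -0.012 over all genes tested. Without control TNFα replicate 4, *Mt1* (log2 fold change -0.26, adjusted p = 0.0201), *Mt2* (-0.25, adjusted p = 0.0122) and *Hmox1* (-0.18, adjusted p = 0.0496, all with edgeR) were also called lower, and 5 of the 10 genes were then lower against 5.18% of all genes tested. *Mt1* was called lower also without *Notch2*tm1.1Ecan TNFα replicate 4. *Xdh* was 1.16-fold higher in *Notch2*tm1.1Ecan cells but not called (log2 fold change 0.22, 95% interval 0.07 to 0.36, adjusted p = 0.0529), and it was called higher without *Notch2*tm1.1Ecan TNFα replicate 4 and without control TNFα replicate 2 (lowest adjusted p = 0.0179, both with edgeR). *Sod2*, *Sod3*, *Slc39a14* and *Steap4* had log2 fold changes of 0.09, -0.04, -0.03 and 0.04, with 95% intervals that lay between -0.17 and 0.24.

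**Figure D4:**
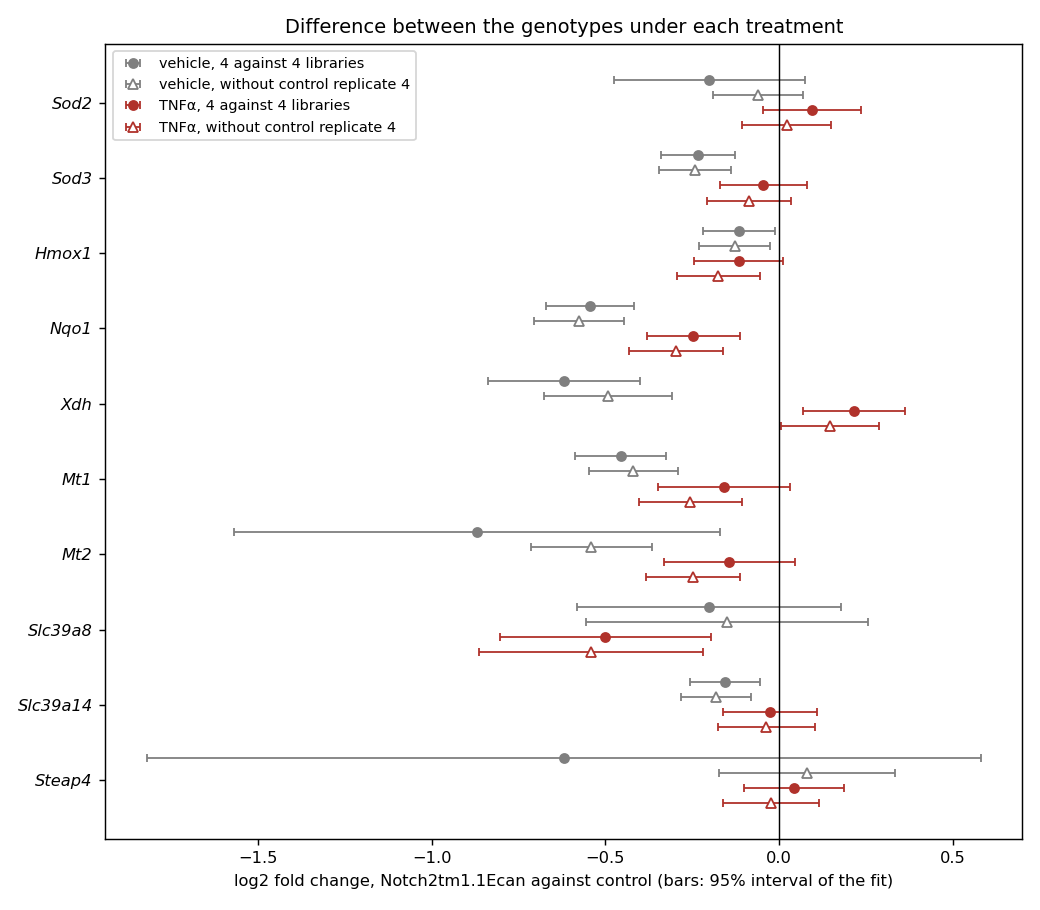
Log2 fold change of each gene in *Notch2*tm1.1Ecan against control cells, under vehicle (gray) and under TNFα (red), with all libraries (circles) and without the replicate 4 of the control group (triangles). Bars are 95% intervals of the fit. *Nqo1* lies below 0 in each case, *Xdh* lies below 0 under vehicle and above 0 under TNFα, and the wide intervals of *Mt2* and *Steap4* under vehicle narrow without control vehicle replicate 4.

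Cell type markers moved with the genotype. Over all genes tested, 6.19% were called higher and 4.35% lower under vehicle, and 5.63 and 4.31% under TNFα. The 16 macrophage markers summed to 79.6 to 88.1 CPM in control and 152 to 179 CPM in *Notch2*tm1.1Ecan cells under vehicle, with 12 of 16 called higher, and to 94.8 to 113 and 200 to 226 CPM under TNFα, with 13 of the 15 tested called higher. Of these markers, *Itgam* was at 0 counts in 1 library and *Cx3cr1* in 5. The 6 endothelial markers summed to 6.85 to 9.11 CPM in control and 16 to 20.6 CPM in *Notch2*tm1.1Ecan cells under vehicle, and to 9.15 to 12.1 and 17.7 to 24.0 CPM under TNFα. Under vehicle 4 of 6 were called higher, and under TNFα 3 of 6 (2 without control TNFα replicate 4). *Tek* made up much of these sums, reaching 17.9 CPM, whereas no other endothelial marker exceeded 2.38 CPM in any library. All 15 chondrocyte markers were called lower in *Notch2*tm1.1Ecan cells under either treatment (14 under vehicle without control vehicle replicate 4). Their sum was 51907 to 55716 CPM in control and 32377 to 37609 CPM in *Notch2*tm1.1Ecan cells under vehicle. The 8 markers of fibroblasts and perichondrium summed to 31538 to 34495 and 36015 to 38695 CPM under vehicle, with 5 called higher and 1 lower, and to 30897 to 33918 and 34586 to 42492 CPM under TNFα. The part of these shifts in the lower levels of *Nqo1*, *Xdh*, *Mt1*, *Mt2*, *Sod3* and *Slc39a8* was not tested.

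To determine whether the response to TNFα differed between the genotypes, the interaction was tested over all 16 libraries. *Xdh* was the only one of the 10 genes for which the difference was called, against 0.474% of all genes tested. The log2 fold change with TNFα exceeded that of control cells by 0.83 in *Notch2*tm1.1Ecan cells (standard error 0.13, 95% interval 0.57 to 1.09, adjusted p = 0.000785 with edgeR). It was called in each of the 16 fits that leave out 1 library, with values between 0.68 and 0.89, and was 0.64 without both control replicates 4 (adjusted p = 0.00065 with edgeR). For the other 9 genes the adjusted p was between 0.198 and 0.999 with edgeR, which does not show equal responses. *Nqo1* had an interaction of 0.29 with a 95% interval of 0.11 to 0.48, and *Mt1* one of 0.29 with an interval of 0.06 to 0.52. The intervals of *Sod3*, 0.02 to 0.34, and *Mt2*, 0.06 to 1.38, also lay above 0, and those of the other uncalled genes included 0. These intervals are not adjusted for the number of genes tested, and none of these genes was called. Control vehicle replicate 4 moved the value of *Mt2* from 0.72 to 0.37 and that of *Steap4* from 0.66 to -0.07 when it was left out.

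Genes of the same pathways were examined from lists that exclude the 10 genes. Over all genes tested, TNFα raised 23.3% and lowered 20.9% in control cells. It raised 22.6% and lowered 21.9% in *Notch2*tm1.1Ecan cells. Between the genotypes, 6.19% were called higher and 4.35% lower under vehicle, and 5.63 and 4.31% under TNFα. Counts within lists stand beside these shares, and no list was tested as a set. Among superoxide-producing NADPH oxidases, 8 of 12 listed genes were tested, and TNFα raised 4 in control and 6 in *Notch2*tm1.1Ecan cells without lowering any. Without both control replicates 4, 5 rose and 1 fell in control cells. The median log2 fold change was 0.84 in control and 1.25 in *Notch2*tm1.1Ecan cells. *Cybb*, the catalytic subunit of the phagocyte oxidase, was at 1.38, 1.07, 1.03 and 2.92 CPM in control vehicle and at 8.78 to 12 CPM in control TNFα libraries, a 6.34-fold rise (adjusted p = 4.00e-06), and rose 8.04-fold in *Notch2*tm1.1Ecan cells (adjusted p = 4.03e-18, both with edgeR). Without both control replicates 4 the rise of *Cybb* in control cells was 9.23-fold, so that the order of the genotypes turned with these libraries. *Noxo1*, an organizer subunit of nonphagocytic oxidases, rose 4.95-fold in control and 5.96-fold in *Notch2*tm1.1Ecan cells. Between the genotypes, *Cybb* was higher in *Notch2*tm1.1Ecan cells by 0.96 under vehicle (1.41 without control vehicle replicate 4) and by 1.29 under TNFα on the log2 scale, and *Ncf1*, a cytosolic subunit, by 1.53 under TNFα. Macrophages express both genes, and the macrophage markers were also higher in *Notch2*tm1.1Ecan cells, as given above. In bulk RNA, more macrophages and more RNA per cell cannot be told apart, and the part of either in these differences was not tested.

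The NRF2 list divided in its response to TNFα, with 10 of 22 genes raised and 7 lowered in control cells and 11 raised and 5 lowered in *Notch2*tm1.1Ecan cells. *Bach1*, which encodes a repressor of NRF2 targets such as *Hmox1*, rose 1.78-fold in control and 2.25-fold in *Notch2*tm1.1Ecan cells, and *Cbr3*, a carbonyl reductase, rose 1.83-fold in control and 1.73-fold in *Notch2*tm1.1Ecan cells. *Gstm1*, a glutathione transferase, rose 1.74-fold in control and 2.19-fold in *Notch2*tm1.1Ecan cells. *Osgin1* fell 1.38-fold in control and 1.37-fold in *Notch2*tm1.1Ecan cells, and *Txnrd1*, thioredoxin reductase, fell 1.34-fold and 1.24-fold, respectively. The median log2 fold change of the list was 0.16 in control and 0.28 in *Notch2*tm1.1Ecan cells. Between the genotypes none of the 22 genes was called lower, a share near the 4.35 and 4.31% of all genes called lower under vehicle and TNFα. Under vehicle only *Gsta4* was called higher, and not without control vehicle replicate 4 (adjusted p = 0.0845 with edgeR), and 5 genes were higher under TNFα (4 without control TNFα replicate 4), including *Bach1* with a log2 fold change of 0.41 and *Gsta4* with one of 0.49.

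Of 19 genes of peroxide and superoxide removal, TNFα raised 7 and lowered 4 in control cells (7 and 6 without both control replicates 4), and raised 5 and lowered 6 in *Notch2*tm1.1Ecan cells, and the median log2 fold changes were 0.05 and -0.02. *Gpx4*, the peroxidase of lipid hydroperoxides, rose 1.80-fold in control and 1.56-fold in *Notch2*tm1.1Ecan cells, and *Cat*, catalase, rose 1.40-fold and 1.56-fold. *Msrb1*, a methionine sulfoxide reductase, fell 1.28-fold and 1.58-fold. Between the genotypes, *Prdx4* and *Msrb1* were higher in *Notch2*tm1.1Ecan cells under vehicle, and *Gpx4* was 1.27-fold lower under TNFα.

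Among the other zinc transporters, metallothioneins and *Mtf1*, 19 of 25 listed genes were tested, and TNFα raised 8 and lowered 5 in control cells and raised 5 and lowered 6 in *Notch2*tm1.1Ecan cells. The median log2 fold change was -0.02 in control cells, although more genes rose than fell, and -0.14 in *Notch2*tm1.1Ecan cells. *Slc39a4*, the zinc importer ZIP4, had the largest rise in each genotype among genes of this list with a mean of at least 1 CPM. It had 0, 1, 0 and 18 counts in control vehicle replicates 1 to 4 and 76, 101, 92 and 68 counts in control TNFα replicates 1 to 4. In *Notch2*tm1.1Ecan cells it had 2, 2, 4 and 5 counts with vehicle and 61, 91, 79 and 17 counts with TNFα, a 33.0-fold rise after scaling to library size (log2 fold change 5.05, standard error 0.31, adjusted p = 1.54e-13 with edgeR). Thus the gene had at most 5 counts in 7 of the 8 vehicle libraries, control vehicle replicate 4 being the exception, and at least 17 counts in all TNFα libraries. For control cells the fitted rise, a log2 fold change of 4.06 (adjusted p = 0.00386 with edgeR), rested on control vehicle replicate 4 for its vehicle level and is no measure of size. *Slc39a10*, another importer, rose 1.63-fold in control and 1.49-fold in *Notch2*tm1.1Ecan cells, and *Slc30a5*, a zinc exporter of the secretory pathway, fell 1.46-fold and 1.62-fold. Only 1 gene of the list differed between the genotypes, *Slc39a11*, which was 1.20-fold lower in *Notch2*tm1.1Ecan cells under TNFα.

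Of 22 genes of iron, heme and copper handling that were tested, TNFα raised 10 and lowered 7 in control cells and raised 9 and lowered 5 in *Notch2*tm1.1Ecan cells, and the median log2 fold changes were 0.20 and 0.37. *Lcn2*, which binds iron-carrying siderophores, rose 3.70-fold in control and 4.03-fold in *Notch2*tm1.1Ecan cells, and *Fth1*, the ferritin heavy chain that stores iron, rose 2.38-fold in control and 2.72-fold in *Notch2*tm1.1Ecan cells. *Tfrc*, the transferrin receptor, fell 3.20-fold in control and 3.70-fold in *Notch2*tm1.1Ecan cells, and *Cybrd1*, a ferric reductase, fell 1.96-fold in each genotype. Without both control replicates 4, the rise of *Lcn2* in control cells was 4.11-fold and the fall of *Tfrc* was 3.82-fold, so that the small differences between the genotypes turned. Hence *Steap4* and *Cybrd1*, both metalloreductases, moved in opposite directions with TNFα. Between the genotypes, 3 genes were higher (1 without control vehicle replicate 4) and 6 lower in *Notch2*tm1.1Ecan cells under vehicle, and 3 were higher and 4 lower under TNFα. *Slc11a1*, a metal transporter of macrophages, was higher under either treatment, with log2 fold changes of 1.46 and 0.97, and *Cybrd1* was 1.54-fold lower under either treatment.

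Around *Xdh* in purine breakdown, 8 genes were tested in control and 9 in *Notch2*tm1.1Ecan cells, and TNFα raised 3 and lowered 3 in control and raised 5 and lowered 3 in *Notch2*tm1.1Ecan cells, and the median log2 fold changes were -0.20 and 0.52. *Pnp*, which forms hypoxanthine and guanine, rose 2.09-fold in control and 2.39-fold in *Notch2*tm1.1Ecan cells, and *Ampd3*, an AMP deaminase, rose 1.94-fold and 2.38-fold. *Nt5e*, the ecto-nucleotidase that forms adenosine, fell 1.63-fold and 1.99-fold, and *Ada*, adenosine deaminase, fell 1.72-fold and 1.33-fold. *Gda*, which converts guanine to xanthine, a substrate of XDH, was the only gene of these lists with a called interaction. It was at 16.2 to 18.2 CPM in control and 8.75 to 13.6 CPM in *Notch2*tm1.1Ecan cells with vehicle, and at 13.9 to 15.4 and 15.7 to 17.5 CPM with TNFα. Its response in *Notch2*tm1.1Ecan cells exceeded that in control cells by 0.67 on the log2 scale (standard error 0.15, adjusted p = 0.0193 with edgeR). The interaction of *Xdh* had the same sign, but in control cells *Gda* was lower with TNFα whereas *Xdh* was higher. A link between the genes was not tested.

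**Figure D5:**
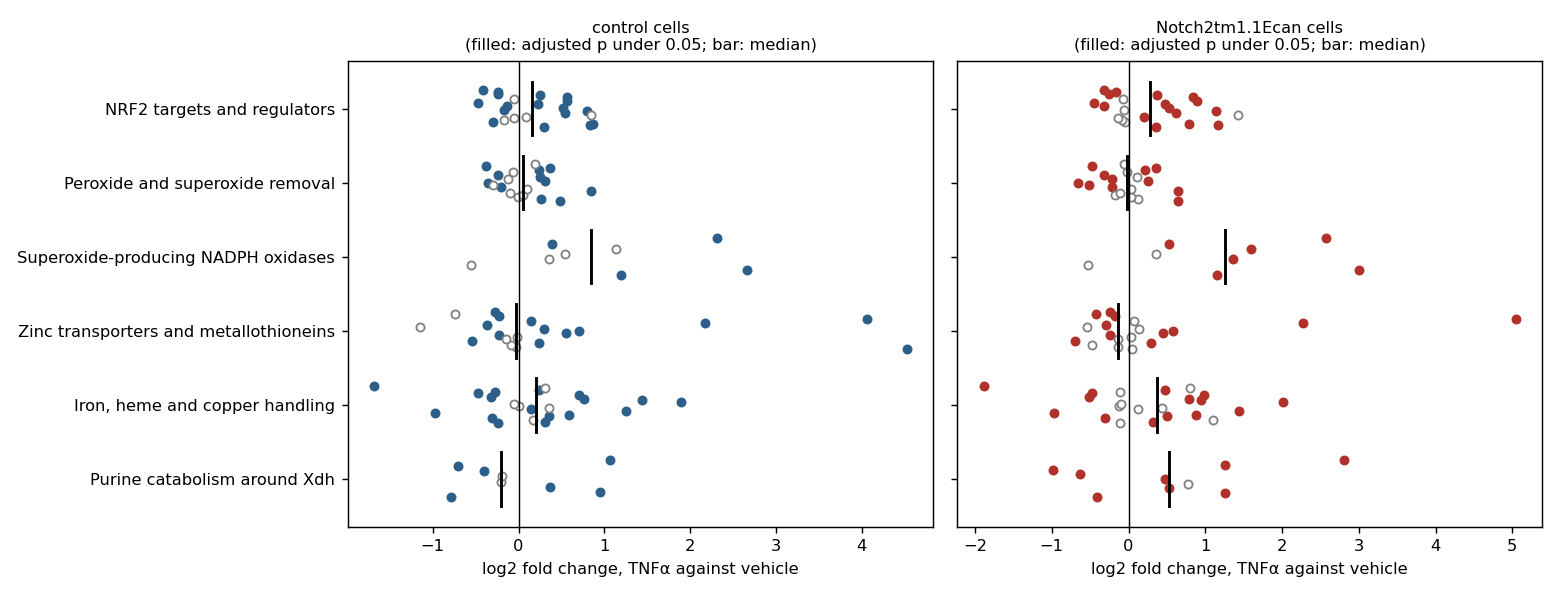
Log2 fold change with TNFα against vehicle of the genes tested in each of the 6 related lists, in control cells (left) and in *Notch2*tm1.1Ecan cells (right), with a separate horizontal scale in each panel. Each point is a gene, filled where the adjusted p was under 0.05, and the black bar is the median of the list. The NADPH oxidase genes lie mostly above 0, with *Cybb* at 2.66 and 3.01, *Tfrc* lies at -1.68 and -1.89, and *Slc39a4* lies at 4.06 and 5.05. The point beyond *Slc39a4* in control cells is *Mt3* at 4.52, which had no count in the control vehicle libraries.

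The genes with the most similar profile over the 16 libraries were found by the mean absolute difference of log2 CPM after centering each gene, among 13430 genes with a mean of at least 1 CPM. *Sod3* and *Hmox1*, which changed little, had close neighbors, *Eef2* at 0.0400 and *Fgfr1* at 0.0381, respectively. The nearest gene was *Ripk2* for *Steap4* (0.0910), *Trafd1* for *Sod2* (0.0829), *Ninj1* for *Mt1* (0.0893), *Arhgef3* for *Nqo1* (0.0787) and *Timp2* for *Slc39a14* (0.0467). *Slc39a8* was nearest to *Orai2* (0.106) and *Xdh* to *Abca3* (0.108). *Mt2* was farthest from any other gene, with *Il1rl1* at 0.155 and *Birc3* at 0.160, and *Mt1* was not among its 2 nearest genes. The measure includes the size of each change, and *Mt2* rose more than *Mt1*, so that the shapes of their profiles were not compared. *Cp*, which encodes the ferroxidase ceruloplasmin and belongs to the iron list, was the second nearest gene to *Nqo1* at 0.0847.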

How the data were processed

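RNA was sequenced from 16 libraries, 4 for each group, and 1 table of counts per gene was deposited for each library. Per the paper, the authors trimmed reads with Trimmomatic, aligned them to GRCm39 with HISAT2 and counted reads per gene with HTSeq, whereas the submitters' processing notes name GRCm38, HISAT2 2.1.0, SAMtools 1.9, Picard, HTSeq and DESeq2. The counts are raw, and the build used for them is therefore uncertain. Names, positions and exon lengths were matched by identifier in GENCODE M39 for GRCm39, and 665 identifiers, with 0.0182% of counts, had no name. Promoter sequences are from RefSeq for GRCm38.p6, and positions of the builds were not mixed. The 5 entries that name no gene held 8.81 to 12.1% of each file's total and were left out.

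Genes with at least 10 counts summed over the libraries compared were tested in R 4.3.3 with edgeR 4.0.16 (TMM factors, robust quasi-likelihood fit) and limma 3.58.1, on the libraries of the groups compared, or on all 16 for the interaction. No covariate was used, since the paper does not name those in its model. A gene was called at an adjusted p under 0.05, and a 2-fold limit is given beside it. The biological coefficient of variation was 7.65 to 9.98% in the 5 fits. Scripts were tested on simulated data with known changes. Levels were computed with pandas 2.3.3 and numpy 2.4.6 in Python 3.11.15 and plotted with matplotlib 3.10.9. Alternatives were DESeq2 1.42.0, other size factors, filters on low counts, a fit over all libraries, a replicate block and leaving out libraries. Libraries of 1 group differed by more than sampling noise, the chi-square of pairs divided by its degrees of freedom being 2.14 to 16, so that none was treated as a repeat. Intervals are those of the fits.

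The members and lists were chosen with earlier results of these data known. Named genes are the 10 members, from each list and comparison at most the 2 largest rises and 2 largest falls among called genes with a mean of at least 1 CPM, the 2 genes nearest to each member, *Notch2*, *Heyl* and 6 TNFα-responsive genes. *Gda* is named for its interaction, and *Mt3* was named after its values were seen. A gene that the rule would name is not reported here.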

Additional observations from a re-analysis of the deposited data

Results flagged for a closer look

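Among 40 sets of 4 libraries, the 10 genes in each of the 4 groups, 3 had a library far from the other 3, and chance alone flags about 1 in 20 sets, or 2 of 40. *Mt2* in control vehicle replicate 4 was at 79.6 CPM, against 37.5 to 41.8 CPM in the other control vehicle libraries. *Steap4* was at 25.3 CPM in the same library, against 6.47 to 7.66 CPM. *Hmox1* in *Notch2*tm1.1Ecan vehicle replicate 1 was at 211 CPM, against 192 to 194 CPM in the other *Notch2*tm1.1Ecan vehicle libraries. The response of *Xdh* to TNFα differed between the genotypes, with an interaction of 0.83 on the log2 scale (adjusted p = 0.000785 with edgeR). *Xdh* was higher with TNFα in all libraries of each genotype, so that the response differed in size and not in direction.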

How the results depend on the processing

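Of 840 values of single genes under another setting, 785 kept their direction and their side of the threshold, 18 passed it only under the other setting, 16 no longer passed and 21 changed sign. With at least a 2-fold change required, 6 of the 10 genes were called for TNFα in control cells (10 without it), and 0 for either genotype comparison (5 under vehicle and 2 under TNFα without it) and for the interaction (1 without it). Over all genes that limit left 2279 of 8542 (TNFα in control cells), 2720 of 8745 (TNFα in *Notch2*tm1.1Ecan cells), 244 of 2048 (genotype, vehicle), 272 of 1912 (genotype, TNFα) and 10 of 101 (interaction). The interaction count was 174 with DESeq2, 266 with a filter of at least 1 count and 156 without replicate 4 of every group. In the last setting, 5 of the 10 genes were called between the genotypes under TNFα, and its share over all genes is not given. With all libraries 2 of the 10 genes were called, against 9.94% of all genes tested. The cause of these shifts was not tested.

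With each library left out in turn, calls among the 10 genes ranged from 9 to 10 for TNFα in control, 9 to 9 for TNFα in *Notch2*tm1.1Ecan cells, 4 to 6 for the genotypes under vehicle, 1 to 5 under TNFα and 1 to 1 for the interaction. Genes called ranged from 7757 to 8549, 7915 to 9307, 1578 to 2666, 1458 to 2075 and 51 to 156, the last being lowest without *Notch2*tm1.1Ecan TNFα replicate 3 and highest without *Notch2*tm1.1Ecan vehicle replicate 1. *Mt2* was called lower in *Notch2*tm1.1Ecan cells under vehicle with DESeq2 (adjusted p = 0.0193) and in a fit over all libraries (adjusted p = 0.0267).

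Signs changed for values near 0 and for *Steap4*. The log2 fold change of *Slc39a14* with TNFα in *Notch2*tm1.1Ecan cells was 0.0022 with filterByExpr, -0.076 to 0.045 with 1 library left out and 0.046 without replicate 4 of every group, and between the genotypes under TNFα it was -0.083 to 0.026 and 0.028 in the latter settings. *Hmox1* in the interaction was 0.0046 with DESeq2, 0.0068 with RLE factors, 0.0074 with filterByExpr and -0.049 to 0.026 with 1 library left out. *Steap4* between the genotypes under vehicle was -0.81 to 0.081 with 1 library left out, the highest being without control vehicle replicate 4, and 0.035 without replicate 4 of every group. Under TNFα it was -0.023 to 0.093 and -0.043. Its interaction was -0.069 to 0.84 with 1 library left out, -0.077 without replicate 4 of every group and -0.10 without both control replicates 4.

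Replicate numbers are shared between groups, and whether a number marks a common origin is not stated. Same-numbered libraries showed little common deviation (correlations of deviations from the group means from -0.19 to 0.14 over 13431 genes). With 4 libraries per group these correlations cannot exclude a pairing, and the main fits used none. With a replicate block, calls among the 10 genes were 10, 9, 4, 2 and 1 and calls over all genes 8209, 8772, 2072, 1741 and 74 in the order above, and *Slc39a14* under vehicle was the only one of the 10 genes to lose its call (adjusted p = 0.0667 with edgeR).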
